A study of Rattus norvegicus with 10 samples.

Results

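Cytosolic ribosomal protein genes and their testis paralogs were followed in round spermatids of aged and young Brown Norway rats. The members were the protein-coding entries of the deposited tables whose symbol follows the large- or small-subunit pattern Rpl, Rps or Rplp plus a number. This gave 104 entries with 83 symbols, out of 32545 entries in all. They were sorted by symbol, exon structure and chromosome. The core set held 64 entries, 40 of the large and 24 of the small subunit, each a spliced gene on the chromosome where RefSeq places that symbol. A further 23 entries carried a core symbol at another locus, 19 of them without an intron, and are called copies here. Another 10 entries had a derived symbol such as Rps4y2, and 7 entries carried the symbols of the paralogs Rpl39l, Rpl10l, Rpl22l1, Rps27l, Rpl36al and Rpl3l.

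The aged group was 5 samples of primary round spermatids from rats of 18 to 20 months, and the young group was 5 samples from rats of 4 to 6 months. All were wild type, fed freely, and the labels give no drug or other treatment. Germ cells were separated by STA-PUT, a sedimentation at unit gravity that enriches a cell type without purifying it completely. Nothing in the labels ties a sample to an animal, and samples may be technical repeats, so each p measures only the spread between samples.

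Ribosomal proteins form the large and small subunits around ribosomal RNA, and a ribosome carries a single copy of most of them. Their messages often begin with a C followed by a run of C and T bases, the 5′ terminal oligopyrimidine (TOP) start, through which the mTOR pathway controls their translation. Several ribosomal protein genes lie on the X chromosome, which is silenced during male meiosis and stays largely repressed in round spermatids. Autosomal copies of some of these genes, such as Rpl10l and Rpl39l, are active in the testis. In mice, Rpl10l is needed for male meiosis, and Rpl39l contributes to sperm formation.

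Depth recovered from the tables was 15992576 to 18203223 fragments per aged library and 14488222 to 17401744 per young library. The labelled cell type showed in the spermatid markers, whose 12 genes summed to 20539 to 26927 FPKM in aged and 20486 to 32690 FPKM in young libraries (FPKM, the authors' unit, fragments normalised for gene length and library depth). Meiosis markers summed to 330 to 390 FPKM in aged and 358 to 414 FPKM in young libraries, and 10 of 14 had a lower fitted value in aged samples. Markers of somatic testis cells were also present. No marker passed the test, but the fitted value was higher in aged samples for 12 of 12 tested peritubular and stromal markers, 3 of 3 Leydig cell, 4 of 4 Sertoli cell and 10 of 11 macrophage markers. The peritubular and stromal list summed to 113 to 306 FPKM in aged against 68.3 to 104 FPKM in young libraries. The Leydig cell list summed to 10.8 to 120.2 FPKM in aged and 5.13 to 8.28 FPKM in young libraries. Sertoli cell markers summed to 20.2 to 94.2 FPKM in aged and 19.9 to 25.6 FPKM in young libraries, and macrophage markers to 156 to 253 and 144 to 197 FPKM in aged and young libraries. None of the listed markers was at 0 in all libraries. Aged replicate 2 held the highest value of each of these 4 somatic lists. In bulk samples, more cells of a type and more RNA per cell cannot be told apart.

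The FPKM of single core entries covered a wide range in round spermatids, although the ribosome uses these proteins in near-equal amounts. The core entries had a median of 119 FPKM over the 10 libraries, and 35 of 64 exceeded 100 FPKM, 20 lay between 10 and 100 FPKM and 9 below 10 FPKM. Together they made up 1.996% ± 0.127 of all FPKM in aged and 1.91% ± 0.0458 in young samples (SD, n = 5 each). The 5 most abundant core genes gave 29.2% of the core sum. Small-subunit entries had a median level of 161 FPKM and large-subunit entries of 68.6 FPKM, or 95.7 FPKM over the 37 large-subunit entries that reached a mean of 1 FPKM. These levels depend on the listed gene length. Rpl11, with a mean of 2262.4 fragments over 3845 bases, had 35.5 FPKM, and Rpl36, with 3229.5 over 318 bases, had 613 FPKM. They also depend on the entry that fragments were assigned to. Among core entries below 10 FPKM, Rpl26 held 77.4% of the FPKM of all entries described as its protein, and the others 0% to 30.2%. How much of the range lies in the messages themselves was not tested.

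The most abundant core gene was Rpl41, which encodes a very short basic peptide of the large subunit, at 926 ± 74.4 FPKM in aged and 903 ± 56.1 FPKM in young samples. It was followed by Rpl36, also of the large subunit, at 637 ± 82.5 FPKM in aged and 589 ± 48.5 FPKM in young samples. The small-subunit genes Rps20 and Rps18 averaged 569 ± 69.5 and 456 ± 80.0 FPKM in aged samples, and 600 ± 17.9 and 432 ± 39.4 FPKM in young samples. The groups overlapped for each of these 4 genes, and none had an unadjusted p under 0.05. Rps27a, whose product is a fusion of ubiquitin and a small-subunit protein, was also among the 5 most abundant core genes and is described with its copy later on.

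**Figure D1:**
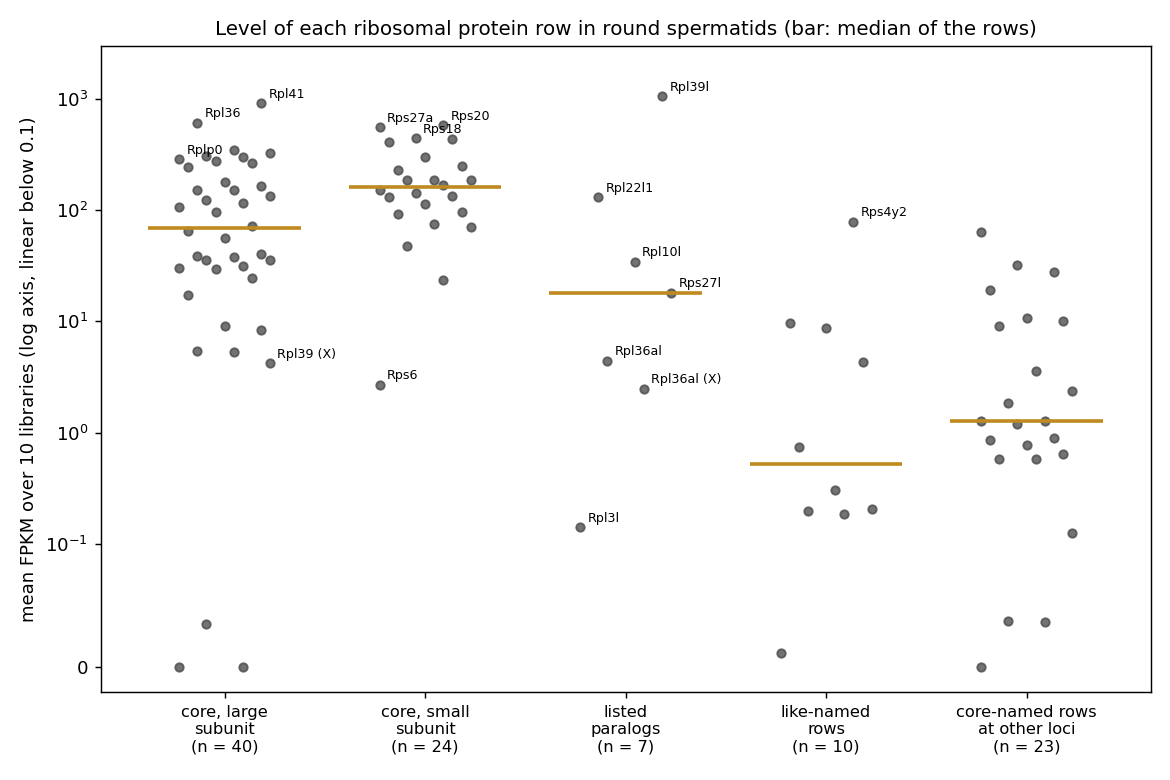
Mean FPKM over the 10 libraries (log axis, linear below 0.1) for each of the 104 ribosomal protein entries, in 5 classes; each point is an entry and each bar the median of its class. The paralog Rpl39l at 1054 FPKM stands above every core entry, of which Rpl41 at 914 FPKM is the highest, and 3 core entries of the large subunit lie at or near 0.

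Among the paralogs, Rpl39l was the most abundant member of all, ahead of every core gene. Rpl39l (ENSRNOG00000032300, chromosome 10, 5529589 to 5533695, minus strand, by the files' coordinates, for which the sources used here give no build) lines the exit tunnel of the ribosome in place of the protein of Rpl39. It had 1028, 1011, 1029, 1037 and 1215 FPKM in aged replicates 1 to 5, against 1005, 1083, 1052, 1015 and 1061 FPKM in young replicates 1 to 5. The groups overlapped, with aged replicate 5 above all other libraries and the remaining 9 close together. Its mean of 1054 FPKM ranked 32nd among all genes of the tables, and the fitted log2 difference of aged minus young on the log2(FPKM + 1) scale was 0.03 (SE 0.05).

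The X-linked core gene of this pair was near the bottom. Rpl39 (ENSRNOG00000043348, chromosome X, 123705384 to 123707257, minus strand) had 9.51, 14.4, 4.52, 0.778 and 3.21 FPKM in aged replicates 1 to 5. It had 1.55, 2.23, 4.03, 0.818 and 0.847 FPKM in young replicates 1 to 5. These values overlapped, and aged replicates 1 and 2 stood above every other library. They rest on 2 to 36 fragments per library over a gene length of 153 bases. Rpl39l supplied 99.4% ± 0.537 of the pair's FPKM in aged and 99.8% ± 0.124 in young samples, a difference of -0.44 percentage points (exact permutation test over samples, two-sided, p = 0.111; adjusted over the 3 pairs tested, p = 0.310). Without aged replicate 2 the difference was -0.24 percentage points, and without aged replicates 1 and 2 together -0.079. A copy named Rpl39 on chromosome 7 held more than the X-linked gene, at 32.9 ± 4.98 FPKM in aged and 31.1 ± 5.11 FPKM in young samples. With all 7 entries named Rpl39 in the pair, the Rpl39l share was 96.3% ± 0.913 in aged and 96.8% ± 0.419 in young samples (difference -0.54 percentage points; exact permutation test, two-sided, p = 0.254).

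RefSeq promoters (build GRCr8) were set beside these levels, since a TOP start is known from many ribosomal protein genes. Of the 63 core symbols, 48 matched an entry of the promoter table. A C at the annotated start followed by at least 4 C or T bases was found in 19 of them (39.6%), against 3.11% of all 27457 symbols in the table. Within 5 bases on either side of the start the shares were 62.5% of core symbols and 18.96% of all symbols. In the 250 bases before the start, on either strand, CGGAAG was present in 47.9% of core and 15.5% of all symbols. TATAA was present in 20.8% of core and 25.6% of all symbols, and TGACG in 43.75% and 19.96%. None of these motifs contains another.

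The windows below run from 50 bases before to 20 bases after the annotated start, 5′ to 3′ on the gene's strand, with the first 20 transcribed bases in capitals; they are shown so that the starts of 3 core genes and 3 paralogs can be compared. They were read from RefSeq at chr12:46718371-46718440 for Rplp0, chr7:1563478-1563547 for Rpl41, chrX:121195877-121195946 for Rpl39, chr10:5966602-5966671 for Rpl39l, chr6:90281963-90282032 for Rpl10l (all minus strand) and chr2:113683146-113683215 for Rpl22l1 (plus strand). RefSeq lists Rpl39l and Rpl10l as synonyms of Rpl39l1 and Rpl10l1.
Rplp0: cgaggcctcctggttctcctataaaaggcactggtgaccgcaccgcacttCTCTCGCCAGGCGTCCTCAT
Rpl41: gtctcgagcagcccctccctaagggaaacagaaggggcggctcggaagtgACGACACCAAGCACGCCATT
Rpl39: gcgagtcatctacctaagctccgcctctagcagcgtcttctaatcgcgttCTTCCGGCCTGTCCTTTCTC
Rpl39l: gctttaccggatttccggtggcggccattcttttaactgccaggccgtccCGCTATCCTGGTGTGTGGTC
Rpl10l: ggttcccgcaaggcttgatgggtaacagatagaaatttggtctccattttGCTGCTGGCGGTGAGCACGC
Rpl22l1: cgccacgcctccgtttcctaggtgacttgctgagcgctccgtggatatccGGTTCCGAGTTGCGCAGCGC
Rplp0 and Rpl39 begin with a run of 5 C or T bases, whereas Rpl41, the most abundant core gene, begins with an A. Rpl39l begins with a C followed by a G, and Rpl10l and Rpl22l1 begin with a G. By this check 18 of the 48 matched core symbols also had no TOP start within 5 bases of an annotated start. Only annotated starts were read, not measured ones. The check therefore cannot show which core genes or paralogs truly lack a TOP start. Among core entries with a promoter, the 30 with such a start within 5 bases had a median level of 134 FPKM and a median log2 difference of aged minus young of 0.08. The 19 without had 47.9 FPKM and 0.13. With the start required at the annotated base itself, the 19 entries with it had a median of 123 FPKM and the 30 without had 112 FPKM, so the gap in level rests on the wider window.

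Rpl10l, the autosomal retrocopy of X-linked Rpl10, was present at moderate level and slightly lower in the aged group on average. Rpl10l (ENSRNOG00000032720, chromosome 6, 88231611 to 88232252, minus strand) had 28.6, 33.2, 31.7, 35.3 and 36.4 FPKM in aged replicates 1 to 5, against 36.4, 33.3, 37.1, 38.2 and 34.01 FPKM in young replicates 1 to 5. The 3 lowest values were aged, but the groups overlapped. Its log2 difference was -0.12 (SE 0.07; limma adjusted p = 0.484). Rpl10 itself is not analysed here.

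Rpl22l1, the paralog of the large-subunit gene Rpl22, averaged 132 ± 21.8 FPKM in aged and 131 ± 8.91 FPKM in young samples, with a log2 difference of -0.01 (SE 0.10). Its values ran from 114 to 169 FPKM in aged and from 117 to 141 FPKM in young libraries, with aged replicate 5 highest and aged replicate 1 lowest. Rps27l, the paralog of the zinc-finger protein gene Rps27, averaged 18.6 ± 1.74 FPKM in aged and 17.5 ± 1.29 FPKM in young samples (log2 difference 0.08, SE 0.07). Rps27l gave 15.7% ± 1.998 of the FPKM of the Rps27l and Rps27 pair in aged and 17.3% ± 1.77 in young samples (exact permutation test, p = 0.206; adjusted over 3 pairs, p = 0.310). Rpl3l, the striated-muscle paralog of Rpl3, was nearly absent at 0.130 ± 0.0812 FPKM in aged and 0.150 ± 0.141 FPKM in young samples, from 0 to 9 fragments per library, and was not tested. It made up 0.369% ± 0.253 of the Rpl3l and Rpl3 pair in aged and 0.461% ± 0.449 in young samples (exact permutation test, p = 0.770; adjusted p = 0.770). The core partner Rpl3, which helps shape the peptidyl transferase centre, averaged 37.8 ± 6.82 FPKM in aged and 33.3 ± 1.55 FPKM in young samples.

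Rpl36al had 2 entries of different behaviour. The intronless entry on chromosome 10 averaged 4.68 ± 1.03 FPKM in aged and 4.16 ± 1.19 FPKM in young samples (log2 difference 0.15, SE 0.18). The spliced entry on chromosome X (ENSRNOG00000011494, 105402867 to 105405580, plus strand) lies on the chromosome where RefSeq has Rpl36a and not Rpl36al, and may be Rpl36a. RefSeq does not place Rpl36al on chromosome 10 either, so the symbol of both entries is uncertain. The X-linked entry had 3.62, 9.03, 2.76, 2.40 and 3.67 FPKM in aged replicates 1 to 5, against 0.620, 0.255, 0.614, 0.655 and 1.16 FPKM in young replicates 1 to 5. All aged values lay above all young values, and aged replicate 2 stood apart. Groups lay apart for 2.6% of all tested genes (1.36% higher and 1.24% lower in aged samples). The log2 difference was 1.58 (SE 0.26; limma unadjusted p = 8.68e-05, adjusted p = 0.280), from 3 to 99 fragments per library. It was the largest fitted difference among the 396 tested X-linked genes. Without aged replicates 1 and 2, the libraries with the most somatic marker RNA, it was 1.26 (adjusted p = 0.302), and with the somatic marker score as a covariate 0.87 (adjusted p = 0.926). An entry on chromosome 18 described as L36a-like, outside the symbol rule, held far more message, at 149 ± 10.2 FPKM in aged and 138 ± 4.58 FPKM in young samples.

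**Figure D2:**
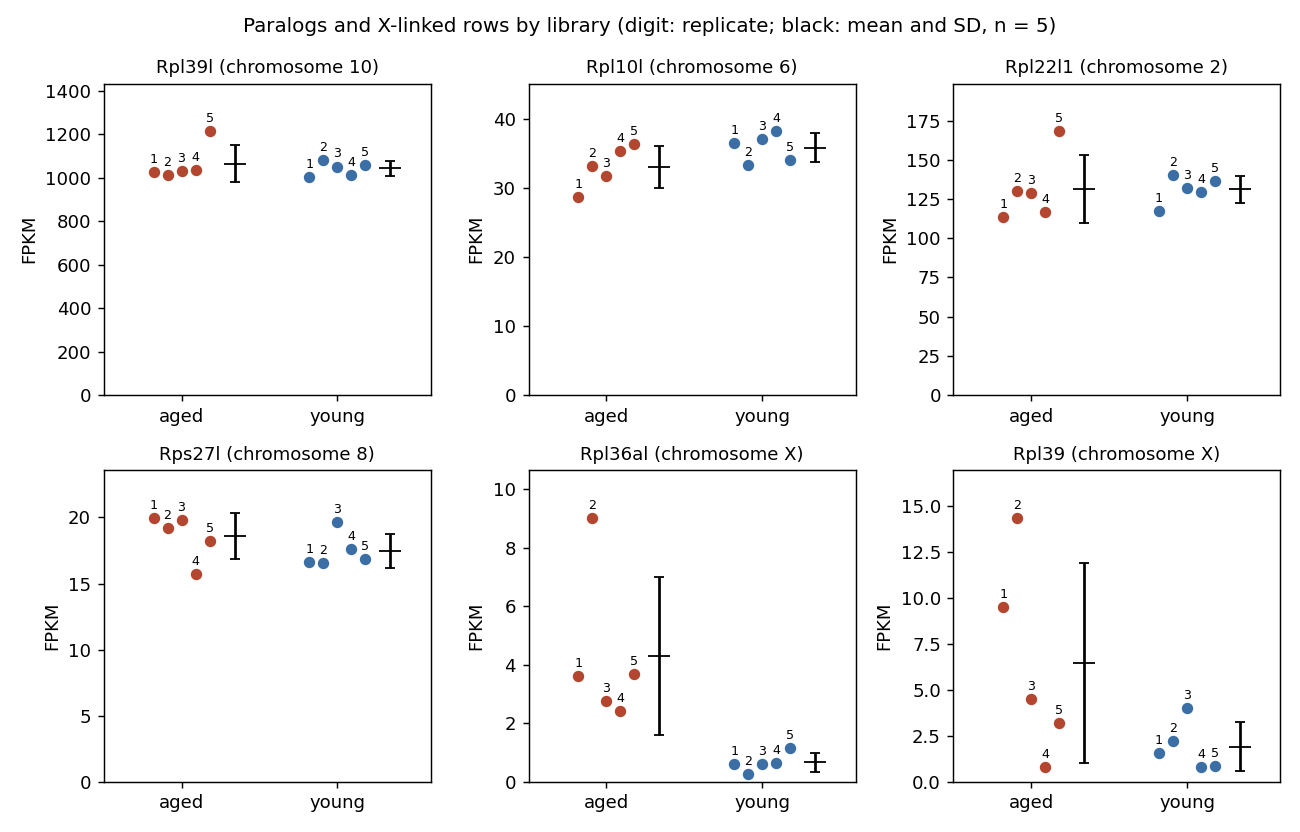
FPKM per library of 4 paralogs and of the X-linked entries Rpl36al and Rpl39, aged left of young, on axes from 0; digits are replicate numbers and the black bars show mean and SD (n = 5 each). The groups overlap in every panel but that of X-linked Rpl36al, where aged libraries lie between 2.40 and 9.03 FPKM and young libraries between 0.255 and 1.16 FPKM.

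Both X-linked entries that were detected had their highest value in aged replicate 2, where the somatic marker score (the mean over 30 tested markers of log2(FPKM + 1) minus each marker's mean) was 1.48. That score was 0.59 in aged replicate 1, between -0.12 and 0.07 in the other aged libraries and between -0.62 and -0.12 in young libraries. For X-linked Rpl39 the fitted log2 difference was 1.12 (SE 0.52, limma adjusted p = 0.428). Without aged replicates 1 and 2 together it was 0.37 (limma adjusted p = 0.817), and with the somatic marker score as a covariate 0.13 (limma adjusted p = 0.984). The part of somatic RNA in these X-linked values was not tested beyond the fits given here. Over all 396 tested X-linked genes, 277 had a positive difference, with a median of 0.08, against a median of -0.02 over all 12985 tested genes. The third X-linked entry, a copy named Rpl39, was listed at 0 in every library.

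Rps4y2, a derived entry on chromosome 4 named for the small-subunit protein S4, was the most abundant of the derived symbols. It had 69.5, 70.9, 80.4, 86.7 and 84.7 FPKM in aged replicates 1 to 5, against 76.3, 79.1, 77.5, 83.3 and 81.4 FPKM in young replicates 1 to 5, and the groups overlapped widely (log2 difference -0.02, SE 0.07). The core symbol Rps4x had only a copy, which averaged 1.90 ± 1.67 FPKM in aged and 0.636 ± 0.261 FPKM in young samples. Among the 23 copies the highest was an Rpl37 entry at 64.2 FPKM and the median was 1.26 FPKM. Of the copies 13 were tested, 8 with a positive and 5 with a negative difference, and of the derived symbols 4, with 2 in each direction.

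The age comparison across the core genes gave small and mostly positive differences, none of which passed. Of the 64 core entries 61 reached the mean of 1 FPKM needed for the test with limma, and of all 104 members 84 did. None had an adjusted p under 0.05, where 0.0% of all tested genes did (0 of 12985; 0 with voom, limma's model for recovered fragments); the smallest adjusted p of a member was 0.280. At an unadjusted p under 0.05 there were 9 core entries (14.8%), against 11.9% of all tested genes (1544). By direction, 8 of 61 core entries were higher in aged samples, where 5.54% of all tested genes were, and 1 of 61 was lower, where 6.35% were. With voom 10 core entries had an unadjusted p under 0.05, against 11.8% of all tested genes, and across all genes 62.8% of such genes were higher in aged samples, against 46.6% with the deposited scaling and 61.2% after TPM scaling.

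In sign, 49 of 61 core entries had a positive fitted log2 difference (80.3%) where 45.5% of all tested genes did, and the core median was 0.10 against -0.02 for all. The sign was positive for 31 of 37 large-subunit entries (median 0.11) and 18 of 24 small-subunit entries (median 0.07). The group means of 37 core entries lay within 10% of each other. Core entries had a median length of 632 bases. Among all tested genes, 50.4% were positive up to 600 bases (median 0.00), 55.2% above 600 and up to 1000 bases (median 0.02), 50.7% up to 2000 bases (median 0.00) and 38.5% above 2000 bases (median -0.03). With a trend on length and level removed from each library, the core median was 0.08 with 49 of 61 positive. The coefficient of variation between libraries had a median of 10.2% for core entries, with a range of 3.74% to 175%, against a median of 12.2% for all tested genes. Tested core entries were also more abundant, at a median of 132 FPKM against 8.10 FPKM for all tested genes. No comparison at matched level was made.

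**Figure D3:**
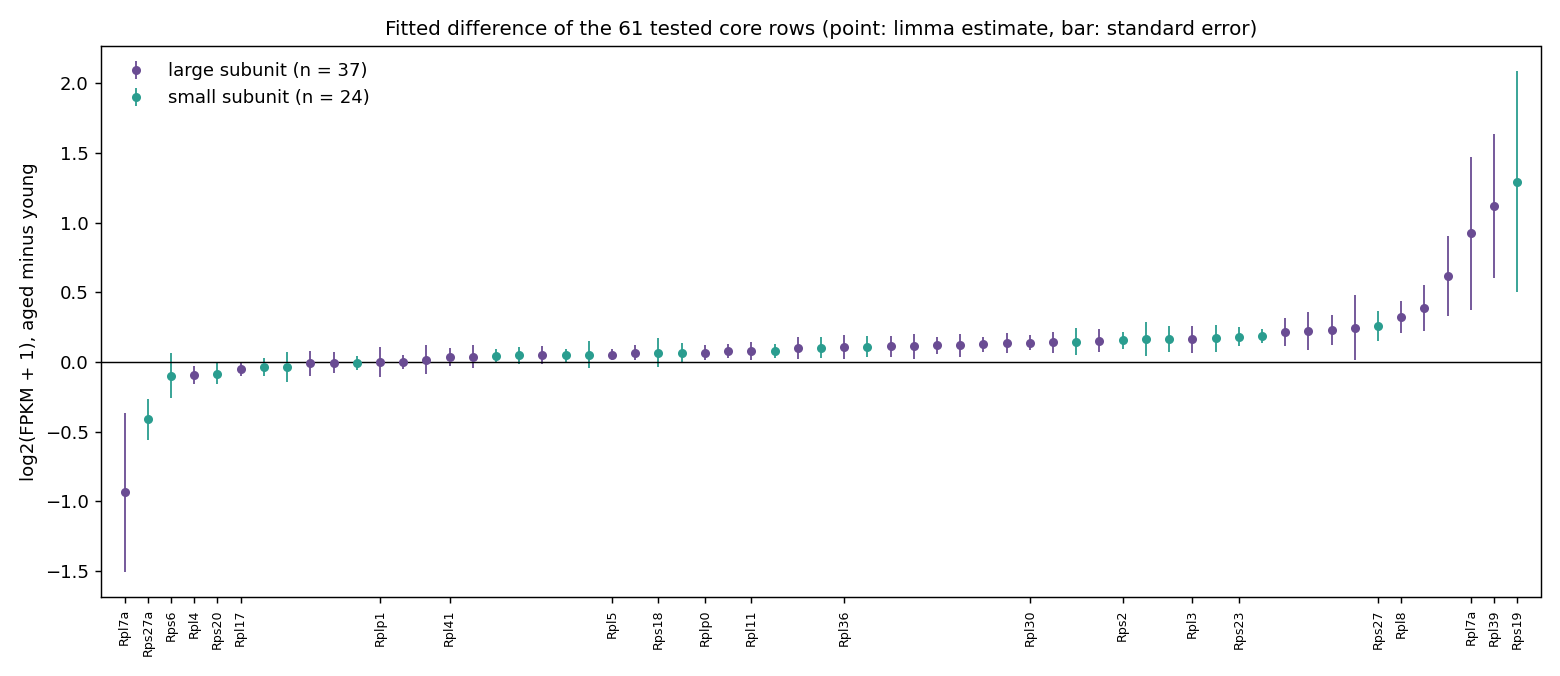
Fitted log2 difference of aged minus young (limma on log2(FPKM + 1)) for the 61 tested core entries, sorted, with bars of 1 standard error and colours by subunit; names are given for some of the entries. Most points lie between 0 and 0.3, 49 are positive, and the entries with the longest bars (Rpl7a, Rps19, Rpl39) are those with large differences between single libraries.

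These positive differences were not shared evenly by the libraries. The median deviation of the 61 core entries from their own means was -0.03, 0.09, -0.07, 0.02 and 0.14 on the log2 scale in aged replicates 1 to 5. In young replicates 1 to 5 it was -0.06, -0.04, -0.06, -0.10 and 0.04. Aged replicates 5 and 2 were highest, aged replicate 3 was among the lowest, and the groups overlapped. Aged replicate 5 had a somatic marker score of -0.02, above all young libraries (-0.62 to -0.12) and below aged replicates 1, 2 and 4 (0.59, 1.48 and 0.07). Without aged replicate 5 the core median difference was 0.05, with 45 of 61 positive. Adding the somatic score as a covariate gave 0.05 as well, with 39 of 61 positive. In that fit 1 core entry had an unadjusted p under 0.05, against 4.51% of all tested genes. Without aged replicate 3, 18 core entries did, against 12.7% of all tested genes. Without aged replicate 2, young replicate 1 or young replicate 4 there were 5 core entries in each fit, against 9.53%, 8.89% and 9.26% of all tested genes in that order, which is near those shares.

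**Figure D4:**
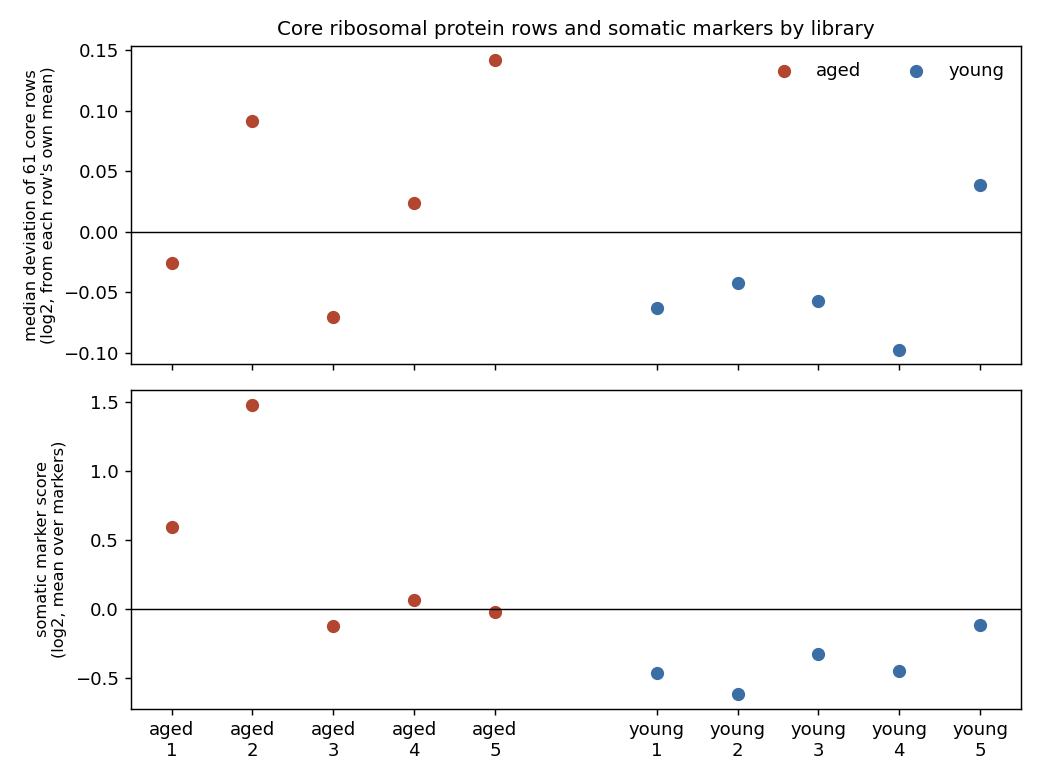
Upper panel: median over the 61 tested core entries of each library's deviation from the entry's own mean (log2 scale); lower panel: somatic marker score of the same libraries, aged left of young. Aged replicate 5 has the highest core value (0.14) with a marker score of -0.02, above every young library, and aged replicate 2 is high in both panels (0.09 and 1.48).

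Core genes with a positive difference and a small unadjusted p included Rps23, Rpl8, Rps2 and Rpl30. Rps23, which sits near the decoding centre of the small subunit, had 143, 141, 127, 136 and 163 FPKM in aged replicates 1 to 5, against 119, 122, 121, 123 and 137 FPKM in young replicates 1 to 5. The groups overlapped through young replicate 5 (log2 difference 0.18, SE 0.06; limma adjusted p = 0.357). Rps2, near the path where mRNA enters, averaged 78.9 ± 6.24 FPKM in aged and 70.6 ± 4.43 FPKM in young samples (log2 difference 0.16, SE 0.06; limma adjusted p = 0.383). Rpl30, of the large subunit, averaged 362 ± 18.2 FPKM in aged and 329 ± 22.6 FPKM in young samples (log2 difference 0.14, SE 0.06; limma adjusted p = 0.386). Each of these differences was under 0.2 on the log2 scale, and the groups overlapped for each. Rpl8, a large-subunit protein near the peptidyl transferase centre, averaged 6.10 ± 1.26 FPKM in aged and 4.61 ± 0.355 FPKM in young samples (log2 difference 0.32, SE 0.12; limma adjusted p = 0.360). Its entry held only 15.3% of the FPKM of the 4 entries described as L8, whose sum gave a log2 difference of -0.88 (unadjusted p = 0.087), with 77.2 and 113 FPKM in young replicates 1 and 2 and 16.6 to 23.98 FPKM in the other 8 libraries.

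Among negative differences the smallest unadjusted p belonged to Rps27a, an entry of Rpl7a, Rpl4, Rps20 and Rpl17. Rpl4, which reaches into the exit tunnel, averaged 130 ± 12.7 FPKM in aged and 138 ± 5.78 FPKM in young samples, and Rpl17, which also lines the tunnel, 318 ± 10.6 and 330.0 ± 21.3 FPKM in aged and young samples. Neither had an unadjusted p under 0.05 (0.180 for Rpl4 and 0.329 for Rpl17). Only Rps27a did.

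Rps27a (ENSRNOG00000004426, chromosome 14, 113966611 to 113968268, minus strand) had 472, 394, 647, 353 and 552 FPKM in aged replicates 1 to 5, against 562, 675, 658, 578 and 678 FPKM in young replicates 1 to 5. Aged replicates 1, 2, 4 and 5 lay below every young library and aged replicate 3 lay among them. The log2 difference was -0.41 (SE 0.15; limma unadjusted p = 0.0165, adjusted p = 0.357). An intronless entry on chromosome 5, Rps27a-ps1, had its higher values where Rps27a was low. This entry, outside the symbol rule and chosen after its values were seen, had 278, 396, 111, 356 and 237 FPKM in aged replicates 1 to 5, against 101, 104, 93.5, 198 and 129 FPKM in young replicates 1 to 5 (log2 difference 1.07, SE 0.32; limma adjusted p = 0.319). Among aged libraries, replicate 3 had the highest Rps27a and the lowest Rps27a-ps1 value, and replicates 2 and 4 had the lowest Rps27a and the highest Rps27a-ps1 values. Their sum was 759 ± 33.1 FPKM in aged and 755 ± 55.3 FPKM in young samples (difference 4.12 FPKM; exact permutation test, two-sided, p = 0.897). Rps27a took 63.6% ± 14.9 of that sum in aged and 83.5% ± 5.24 in young samples. Which of the 2 entries a fragment came from cannot be told where their sequences match, and the sources used here do not say how the authors counted such fragments.

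**Figure D5:**
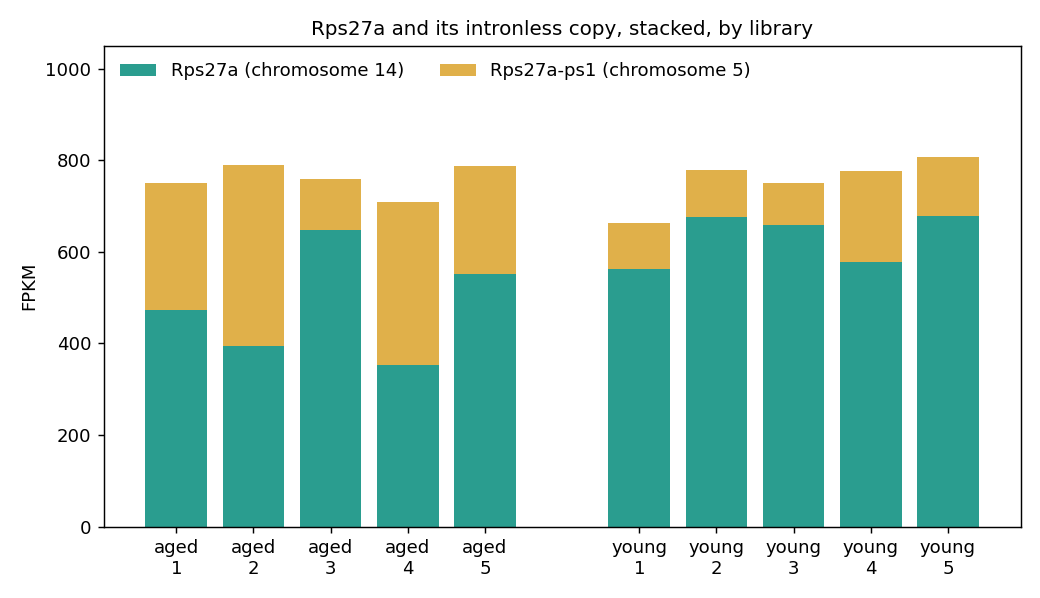
FPKM of Rps27a (lower bar part) and its intronless copy Rps27a-ps1 (upper part), stacked from 0, in each aged and young library. The stacks reach 663 to 807 FPKM in all 10 libraries, while the Rps27a part runs from 353 to 647 FPKM in aged and from 562 to 678 FPKM in young libraries.

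Rps19 and Rpl7a also had libraries far from the rest of their group, but here the entries of a protein did not add up to a steady total. Rps19, needed for small-subunit maturation, had 11.9, 65.0, 36.5, 14.6 and 24.1 FPKM in aged replicates 1 to 5, against 27.98, 1.40, 24.4, 26.8 and 1.84 FPKM in young replicates 1 to 5. An S19-like entry on chromosome 9 had 31.5, 4.76, 20.7, 38.7 and 30.6 FPKM in aged replicates 1 to 5, against 25.1, 81.4, 30.6, 8.05 and 90.9 FPKM in young replicates 1 to 5. Where Rps19 was lowest, in young replicates 2 and 5, the S19-like entry was highest, yet the sum of all 8 entries described as S19 ran from 49.1 to 73.6 FPKM in aged and from 41.5 to 112 FPKM in young libraries. Rpl7a, of the large subunit, has 2 core entries on chromosome 3, of which 1 reached 50.1 FPKM in young replicate 2 against 3.57 to 4.68 FPKM in the other young libraries, and the other 24.5 FPKM in aged replicate 2 against 2.63 to 4.62 FPKM in the other aged libraries. The 2 summed to 5.47 to 27.7 FPKM in aged and 7.13 to 50.3 FPKM in young libraries.

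The acidic stalk proteins recruit translation factors to the large subunit. Rplp0, the stalk base, averaged 293 ± 17.8 FPKM in aged and 279 ± 13.9 FPKM in young samples. Rplp1 averaged 264 ± 39.8 FPKM in aged and 264 ± 36.8 FPKM in young samples. Neither had an unadjusted p under 0.05 by limma (0.205 for Rplp0 and 0.999 for Rplp1), with log2 differences of 0.07 and 0.00 (SE 0.05 and 0.11). Rplp2 was listed at 0 in 8 libraries and at 0.171 and 0.177 FPKM in aged replicates 4 and 5, from 1 fragment each, while a P2-like entry on chromosome 1 had 4.80, 7.01, 124, 23.1 and 6.71 FPKM in aged and 6.13, 171, 148, 106 and 3.17 FPKM in young replicates 1 to 5. The sum of the 5 entries described as P2 ran from 68.98 to 187 FPKM in aged and from 62.9 to 232 FPKM in young libraries. Rpl10a and Rpl23a, genes that every cell uses, were listed at 0 in all 10 libraries; such a 0 can be a failed assignment of fragments.

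Rps6, the small-subunit protein phosphorylated downstream of mTOR, averaged only 2.61 ± 1.02 FPKM in aged and 2.76 ± 0.250 FPKM in young samples. Its entry held 12.7% of the FPKM of the 2 entries described as S6, whose sum ran from 4.51 to 66.5 FPKM in aged and from 6.37 to 27.7 FPKM in young libraries. Rpl5 and Rpl11, which bind 5S ribosomal RNA and, when free, the p53 regulator Mdm2, had entries that held 97.3% and 100% of the FPKM of their protein. Rpl5 averaged 155 ± 6.50 FPKM in aged and 150 ± 3.24 FPKM in young samples, and Rpl11 36.5 ± 3.69 and 34.4 ± 1.28 FPKM in aged and young samples. Their log2 differences were 0.05 (SE 0.04) and 0.08 (SE 0.06).

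To take the entries of a protein together, all those described as the same protein were summed, giving 63 sums over 262 entries. Paralogs whose description names that protein were included. Of the 63 sums, 48 were higher and 15 lower in aged samples, with a median log2 difference of 0.07. At an unadjusted p under 0.05, 8 of 63 sums were higher and 0 of 63 lower, where 5.52% of all genes in that fit were higher and 6.35% lower. None passed (smallest limma adjusted p = 0.319). The core entry itself held under 50% of its sum for 8 proteins and was the only entry for 7. For the protein of Rpl39 the sum includes Rpl39l, and it came to 1105 FPKM in aged and 1078 FPKM in young samples. The sums for Rps27, Rpl3 and Rpl7 likewise include Rps27l, Rpl3l and Rpl7l1, and the Rps27 sum is among the 8 higher ones.

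Genes that make and run the ribosome were taken next, as lists. Of the ribosome biogenesis list, 17 of 35 tested genes had a positive difference (median 0.00), and 5 were higher and 1 lower at an unadjusted p under 0.05, which is 17.1% of the list against 11.9% of all tested genes. Mrto4, an assembly factor of the large subunit, had the smallest p of this list, at 2.58 ± 0.456 FPKM in aged and 1.67 ± 0.305 FPKM in young samples (log2 difference 0.42, SE 0.11; limma adjusted p = 0.319). Tsr1, a small-subunit assembly factor, averaged 16.6 ± 0.971 FPKM in aged and 19.3 ± 1.59 FPKM in young samples (log2 difference -0.20, SE 0.06). Fbl, which methylates ribosomal RNA, and Nop56 of the same particle had log2 differences of 0.19 (SE 0.10) and 0.20 (SE 0.11).

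Of the translation factors, 15 of 35 were positive (median -0.02), with 0 higher and 1 lower at an unadjusted p under 0.05 (2.86% of the list against 11.9% of all tested genes). The lower one was Eif5, which triggers GTP hydrolysis on the scanning ribosome, at 160.0 ± 6.43 FPKM in aged and 176 ± 8.96 FPKM in young samples (log2 difference -0.14, SE 0.05; limma adjusted p = 0.327). Eif5b, which joins the subunits, averaged 114 ± 9.13 FPKM in aged and 103 ± 8.11 FPKM in young samples. Eif1 and Eif1ax, factors of start codon selection, had log2 differences of -0.07 (SE 0.07) and 0.00 (SE 0.09). Of the mTOR and TOP control list, 4 of 11 were positive (median -0.01) and 0 had an unadjusted p under 0.05. Mtor and Rptor, the kinase and its scaffold, had log2 differences of -0.08 (SE 0.04) and -0.07 (SE 0.07), and Akt1, an upstream kinase, 0.25 (SE 0.14).

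Mitochondrial ribosomal protein genes lay between these lists and the core, with 39 of 66 positive (median 0.02) and 7 higher and 2 lower at an unadjusted p under 0.05. That is 13.6% of the list, near the 11.9% of all tested genes. Mrps30 and Mrpl2, with the smallest p, averaged 3.63 ± 0.565 and 4.76 ± 0.620 FPKM in aged samples and 2.58 ± 0.483 and 3.85 ± 0.115 FPKM in young samples. Among ribosomal protein genes with other names, Rpsa averaged 74.0 ± 9.68 FPKM in aged and 69.0 ± 7.73 FPKM in young samples, and Fau 2.31 ± 0.598 and 2.36 ± 1.39 FPKM in aged and young samples. An entry described as an S30-like form of Fau's product held more, at 191 ± 117 FPKM in aged and 143 ± 72.0 FPKM in young samples.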

How the data were processed

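mRNA libraries of 5 aged and 5 young round spermatid samples were read as deposited. The deposited unit is FPKM per gene, 1 table per sample with 32545 genes. Per the submitters' processing notes, HISAT2 2.0.5 and featureCounts 1.5.0-p3 were used; for settings, strand, build and fragments that match several genes, the sources used here give nothing. Whole fragments were recovered from FPKM, gene length and each library's smallest step: 100% of values came out whole within 0.001. Recovered depth was 14488222 to 18203223 fragments per library.

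Genes averaging 1 FPKM or more were tested on log2(FPKM + 1) with limma 3.58.1 (R 4.3.3, trended eBayes, two-sided, Benjamini-Hochberg, threshold 0.05), checked on simulated data. This scale understates changes of low genes. Single values were tested by exact permutation over samples (SciPy 1.17.1). Members, lists and tests were chosen with earlier results of these data known. Core entries were assigned with RefSeq GRCr8 symbols and chromosomes only. Sequences come from RefSeq GRCr8.

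Named in the text were the paralogs and their core genes, X-linked members, stalk genes, the 5 highest and 5 lowest core genes by level, the 5 smallest unadjusted p per direction, members without overlap, Rps6, Rpl5, Rpl11 and Rps27a, and up to 4 genes of each other list; further names were chosen after their values were seen. Results on items withheld for evaluation are left out. Alternatives changed the pseudocount, filter, scaling, model and samples. Sums over entries of a protein, removal of a length trend, the Rps27a pair sum, all Rpl39 entries in the pair share and the wider member set were added after seeing the data. The labels name no batch.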

Additional observations from a re-analysis of the deposited data

Results flagged for a closer look

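Single libraries stood apart from the other 4 of their group (Dixon's 95% critical value for 5 samples, 0.71) for 9 of the members examined. Only 52 groups were examined, not those of every member, and chance flags about 1 in 20. Aged replicate 5 was high for Rpl39l (1215 FPKM, others 1011 to 1037), Rpl36 (781 FPKM, others 576 to 623), Rps18 (594.9 FPKM, others 404 to 452), Rpl11 (42.9 FPKM, others 34.01 to 36.4) and an entry of Rpl7a (4.619 FPKM, others 2.83 to 3.32). Aged replicate 2 was high for X-linked Rpl36al (9.026 FPKM, others 2.40 to 3.67) and for Rpl3 (49.75 FPKM, others 32.7 to 36.7). Among young libraries, replicate 2 was high for the same entry of Rpl7a (50.14 FPKM, others 3.57 to 4.68), and replicate 5 for Rplp1 (328.9 FPKM, others 240.5 to 254) and Rps23 (137.1 FPKM, others 119 to 123). The other core entry of Rpl7a was not examined here, although it had 24.5 FPKM in aged replicate 2 and 2.63 to 4.62 FPKM in the other aged libraries.

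Outside the main measurement, an entry of Rps28 on chromosome 16 that the files class as a processed pseudogene averaged 62.52 FPKM. It stood at 60.1 ± 4.67 FPKM in aged and 64.9 ± 3.04 FPKM in young samples (SD, n = 5 each), and no sample lacks it, so there is no control level to set it against.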

How the results depend on the processing

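Over 26 settings no tested member passed the threshold; the smallest adjusted p among those the naming rule gave was 0.0920, for X-linked Rpl36al without aged replicate 2. Of 27 tested members that the naming rule gave, 16 kept their sign in every setting. Genes of the whole table with an unadjusted p under 0.05 numbered 887 (11.3% of those tested) with a minimum mean of 5 FPKM. With no filter they numbered 2379 (9.58%). With the somatic score as covariate there were 586 (4.51%), and 1 of 61 core entries. Without aged replicates 1 and 2 together there were 972 (7.49%), and 5 of 61 core entries. Leaving out single replicates gave 0 to 1 genes past the threshold (1 without young replicate 1 and 1 without young replicate 2, neither a member). At an unadjusted p under 0.05 there were 1155 to 2183 genes (8.89% to 16.8% of all tested) and 5 to 18 of 61 core entries. The 18 came without aged replicate 3, where 12.7% of all tested genes were called. The 2183 genes came without young replicate 5, with 13 core entries. Positive core entries numbered 45 to 55, with a core median of 0.05 to 0.11.

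Some differences changed sign. With the somatic covariate Rpl3 was at -0.093, Rps20 at 0.00065, Rpl22l1 at 0.044 and Rpl36al on chromosome 10 at -0.037. With the entries of a protein summed, Rpl8 was at -0.88, Rps27a at 0.0099 and Rps6 at 0.16. Rplp1 and Rpl22l1 were at 0.014 and 0.0065 with TPM scaling and 0.021 and 0.014 with voom; Rplp1 was at 0.0067 with quantile normalization and 0.040 with sample weights. Without aged replicates 1 and 2 together Rpl22l1 was at 0.057, Rpl36al on chromosome 10 at -0.013 and the Rpl3l share difference at 0.051 percentage points. Leaving out single replicates, Rpl41 ran from -0.0052 to 0.070, Rplp1 from -0.083 to 0.081, Rps18 from -0.033 to 0.11, Rpl22l1 from -0.099 to 0.041, Rpl39l from -0.023 to 0.043 and the Rpl3l share difference from -0.21 to 0.093 percentage points. The cause was not tested.

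With the replicate number as a block, 1255 genes (9.66% of all tested) and 11 of 61 core entries had an unadjusted p under 0.05, and 0 passed. Same-numbered samples did not deviate together (correlations -0.14, -0.16, 0.01, -0.02 and 0.05). The labels do not say whether the numbers pair the samples, and these correlations cannot exclude it.

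Entries of under about 100 fragments, such as both X-linked ones, and those with further entries of the same protein are the least certain.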
